A study of Homo sapiens with 10 samples.

Results

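The genes described are 10 of the 26040 rows of the expression table, chosen by symbol: the actins ACTA2, ACTB and ACTG1, the alpha-actinins ACTN1 and ACTN4, the tropomyosins TPM1 and TPM2, and the contractile genes TAGLN, CNN1 and MYL9. All 10 passed the filter on low values, at least 10 in at least 3 libraries. They were measured by RNA sequencing in U2OS, a human osteosarcoma line, in 10 libraries of 4 groups, to ask how a lower level of the catenin ARVCF changes transcription when p53 is active. The groups were shARVCF cells with 10 µM nutlin-3a for 24 h (n = 3), shARVCF cells without drug (n = 3), control shRNA cells with the same nutlin-3a dose and time (n = 3) and control shRNA cells without drug (n = 1). Nutlin-3a keeps the ubiquitin ligase MDM2 off p53. All cells had been infected with an shRNA lentivirus and selected in 1 µg/ml puromycin. Each of the 3 shARVCF lines carries its own ARVCF shRNA and gave 1 library with and 1 without drug. The control shRNA is in 1 line, whose 3 treated libraries are not stated to be separate cultures. Since the labels speak of single clones, what belongs to an shRNA and what to the clone that carries it cannot be told apart.

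Actin monomers polymerise into filaments that shape the cell and, with myosin, pull on it. ACTB and ACTG1 are the cytoplasmic actins of nearly every cell, and ACTA2 is the actin of smooth muscle and of contractile fibroblasts. Alpha-actinins crosslink filaments, tropomyosins lie along them and gate myosin, MYL9 is a regulatory light chain of myosin II, and calponin (CNN1) and transgelin (TAGLN) bind filaments in smooth muscle and stress fibres. Many of these genes are transcribed by serum response factor (SRF), which binds the CArG box together with myocardin (MYOCD) or its relatives MKL1 and MKL2, cofactors that free actin monomers hold back. ACTA2 has a further feature, its place beside FAS, a death receptor gene known as a target of p53.

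Promoter sequences from RefSeq (GRCh38.p14, 250 bases before to 50 from the start) were held for 7 of the 10 genes, in 13 windows; ACTB, TAGLN and MYL9 had none. They were searched on both strands for exact matches to the CArG box, to the decamer that p53 binds in pairs, and to TATAA. The windows that follow have exact matches to the CArG box or the p53 decamer in capitals. The ACTA2 pair and a FAS window are shown because the genes sit head to head. The ACTG1 window and 1 of the 4 ACTN1 windows are shown because they hold an exact CArG box. The other ACTN1 windows held no exact match to the CArG box or the p53 decamer.
ACTA2 start inside the gene body (chr10:88952724-88953023, minus strand): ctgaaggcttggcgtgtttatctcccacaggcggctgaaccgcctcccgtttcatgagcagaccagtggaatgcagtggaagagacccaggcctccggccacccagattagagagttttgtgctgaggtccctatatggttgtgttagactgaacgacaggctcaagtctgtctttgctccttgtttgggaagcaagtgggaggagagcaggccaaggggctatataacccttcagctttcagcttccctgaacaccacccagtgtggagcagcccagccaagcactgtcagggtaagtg
ACTA2 start beside FAS (chr10:88991288-88991587, minus strand): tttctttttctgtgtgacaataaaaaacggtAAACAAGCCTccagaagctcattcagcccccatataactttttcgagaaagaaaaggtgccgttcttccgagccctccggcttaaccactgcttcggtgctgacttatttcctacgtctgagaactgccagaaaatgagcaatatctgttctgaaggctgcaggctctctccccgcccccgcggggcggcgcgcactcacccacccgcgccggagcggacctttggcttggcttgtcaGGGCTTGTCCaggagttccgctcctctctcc
FAS start facing it (chr10:88991181-88991480, plus strand): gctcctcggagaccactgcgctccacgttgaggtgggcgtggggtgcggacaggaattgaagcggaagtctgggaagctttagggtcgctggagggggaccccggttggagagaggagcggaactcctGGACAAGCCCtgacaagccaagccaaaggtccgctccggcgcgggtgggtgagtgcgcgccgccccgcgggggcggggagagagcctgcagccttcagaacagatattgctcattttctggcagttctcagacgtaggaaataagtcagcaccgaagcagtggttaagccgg
ACTG1 start (chr17:81512750-81513049, minus strand): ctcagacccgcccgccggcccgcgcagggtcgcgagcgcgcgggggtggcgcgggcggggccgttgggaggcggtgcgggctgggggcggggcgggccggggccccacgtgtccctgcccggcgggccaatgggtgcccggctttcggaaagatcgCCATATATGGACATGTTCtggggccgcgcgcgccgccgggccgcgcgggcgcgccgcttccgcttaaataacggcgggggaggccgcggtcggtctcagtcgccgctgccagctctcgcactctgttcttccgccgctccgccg
ACTN1 start (chr14:68977517-68977816, minus strand): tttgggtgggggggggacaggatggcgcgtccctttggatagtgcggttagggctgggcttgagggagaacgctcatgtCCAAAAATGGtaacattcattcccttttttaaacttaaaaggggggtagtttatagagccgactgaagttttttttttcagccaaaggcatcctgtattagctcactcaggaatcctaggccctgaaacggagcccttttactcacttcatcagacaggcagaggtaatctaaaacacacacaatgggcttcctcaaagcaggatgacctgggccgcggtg

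The ACTA2 window beside FAS and the FAS window share 193 bases (chr10:88991288-88991480). In that stretch 1 exact p53 decamer lies at chr10:88991309-88991318. It reads GGGCTTGTCC from position 20 of the ACTA2 window's start and GGACAAGCCC from position -122 of the FAS window's start. That FAS start, chr10:88991431, is annotated for a retained-intron transcript. Protein-coding FAS transcripts start between chr10:88990657 and chr10:88990877, so the decamer lies past their starts, inside the gene. The other FAS windows held no exact p53 decamer. Directly after the decamer on the FAS strand stands TGACAAGCCA, which departs from the decamer at its end letters and was not counted. A further p53 decamer, AAACAAGCCT, lies at position -219 of the same ACTA2 window. The inner ACTA2 window holds TATAA at position -27 and no exact match to the other motifs. It does hold CCCTATATGG and CCTTGTTTGG, each 1 letter away from the CArG form that was sought, which were not counted. In ACTG1 the CArG box CCATATATGG begins at position -94 and overlaps the p53 decamer GGACATGTTC, which begins at -86. In the ACTN1 window shown the CArG box CCAAAAATGG begins at position -171. Outside the windows shown, 1 ACTN4 window had p53 decamers at positions -214 and -113, which do not adjoin. Of all 34943 promoter windows of this length, 1.296% hold a CArG box, 6.642% a p53 decamer and 20.49% a TATAA. These are letter matches in short windows and say nothing of binding, and the table gives 1 value per gene, so the start from which an ACTA2 mRNA came is not in the data.

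The values are the fragments assigned to each gene, as estimated and scaled per library in the deposited table, and are called scaled fragments. They sum to between 17821751 and 19903778 per library, from an estimated 15073578 to 21096205 fragments before scaling. ARVCF had 1284, 1188 and 1232 scaled fragments in treated shARVCF libraries, against 2928, 2571 and 2376 in treated control libraries. Without drug it had 292, 343 and 338 in shARVCF libraries, against 618 in the control library. ARVCF thus lay lower in every shARVCF library than in the control libraries of the same treatment, but the treated shARVCF libraries lay above the untreated control library. The mesenchymal markers VIM, COL1A1, SPARC and FN1 were abundant, SP7 (0 to 1.90) and COL1A2 (1.83 to 15.5) were near 0, and among smooth muscle markers MYH11, the heavy chain that defines that tissue, was at 0 in all 10 libraries. The 8 smooth muscle markers, CNN1 among them and SMTN the bulk, summed to 2784 to 3880 scaled fragments in treated shARVCF libraries, against 2997 to 3549.8 without drug, and to 4962 to 6004 in treated control libraries, against 3710.3 without. The 4 epithelial markers, nearly all KRT8 and KRT18, summed to 8861 to 14090.0 in treated shARVCF libraries, against 9067 to 12850.5 without drug, and to 26471 to 27503 in treated control libraries, against 11455 without, and their part in the differences of treated control cells was not tested. In the treated control libraries values also moved with transcript length and GC content: across 14743 genes the log2 change with nutlin-3a had a Spearman correlation of -0.03 with spliced length and 0.10 with GC in the shARVCF lines, against -0.43 and 0.38 in the control line. The difference between shARVCF and control cells under nutlin-3a had 0.58 and -0.52. Without drug that difference had 0.01 and -0.30, so a GC trend was also present where no treated control library entered. Values after removal of this trend are given beside the results that include the treated control libraries. The part that the trend plays was not tested. Treated control replicates 2 and 3 bear later library numbers than the other 8 libraries, and values from the first series alone are given where they change a call. That series leaves the control line 1 treated and 1 untreated library.

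Nutlin-3a changed 7 of the 10 genes in the shARVCF lines: ACTA2, ACTN1 and MYL9 rose, ACTB, ACTG1, TPM1 and CNN1 fell, and ACTN4, TAGLN and TPM2 were not called. With a replicate block for line, which the pairing of the libraries by line allows, TAGLN and TPM2 were called higher as well, 9 of 10 in all (5 higher and 4 lower), and 8 of 10 with the block and the trend removed. In the control line 7 of 10 were called, of which ACTA2, ACTN1, TAGLN, MYL9 and TPM2 rose while ACTB and TPM1 fell, and 9 of 10 with the block. The test was limma on log2(scaled fragments + 1) with Benjamini-Hochberg adjustment over all 14955 genes tested, called at an adjusted p of 0.05. These counts stand beside a wide drug response: of all genes tested, 21.0% rose and 21.7% fell in the shARVCF lines, 42.8% in all, and 25.1% rose and 32.0% fell in the control line, 57.1% in all. These shares belong to the fit without the block and with the trend left in. They are no measure for the counts under the other settings. Treated shARVCF libraries lay wholly above the untreated ones for 3 of the 10 genes and wholly below for 4, against 26.5% and 28.4% of all genes, or 54.9% in either direction. The 3 treated control libraries lay above the lone untreated one for 5 of the 10 and below it for 4, against 39.9% and 46.1%, or 86.0% in either direction. The median log2 change of the 10 genes was 0.17 in the shARVCF lines, against -0.00 over all genes, and 0.25 in the control line, against -0.10 over all genes. With the length and GC trend removed, 3 of the 10 were higher and 4 lower in the shARVCF lines, and 4 were higher and 4 lower in the control line. In bulk RNA, fewer cells of a kind and less RNA per cell cannot be told apart. The untreated control group is 1 library, so its spread is taken from the other groups, which share 1 spread per gene in the fit. For the control line p-values thus rest on the spread between shARVCF lines and that between treated control libraries, which may be technical. They do not measure the spread between control cultures.

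**Figure D1:**
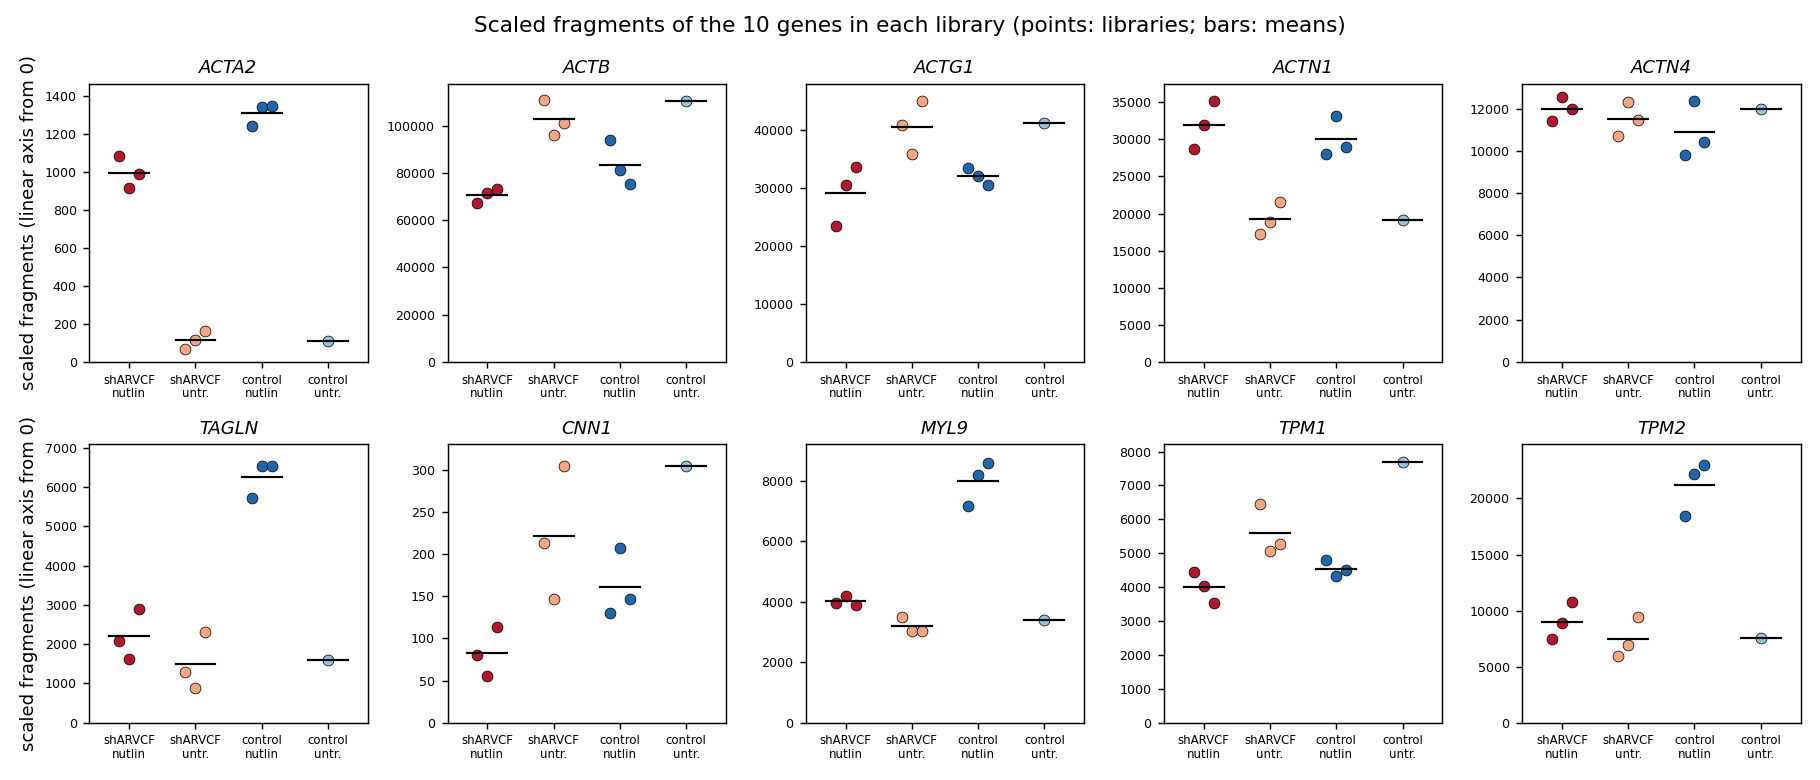
Scaled fragments of each of the 10 genes (vertical axes, linear from 0) in the 10 libraries, by group; points are libraries and bars are group means. ACTA2 lies between 916 and 1345 in the treated libraries and between 70.0 and 161 in the untreated ones, while ACTB lies lower in every treated library than in any untreated one.

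ACTA2, the smooth muscle actin, had the widest response of the 10. It had 1082, 916 and 990.4 scaled fragments in treated shARVCF lines 1, 2 and 3, against 70.0, 114 and 161 in the same lines without drug. Its control-line levels were 1242, 1343 and 1345 with drug, against 109.5 without. Every treated library lay above every untreated one. The log2 change was 3.18 ± 0.23 (SE) in the shARVCF lines, a 9.06-fold rise on the scale of value + 1 (limma adjusted p = 9.8e-07), and 3.57 ± 0.33 in the control line, an 11.9-fold rise (adjusted p = 5.08e-06). These changes stand at percentiles 99.3 and 99.0 of all genes tested. With the trend removed they were 3.10 and 2.87. That ACTA2 rises with nutlin-3a was known when the genes were chosen. Within the shARVCF lines the log2 rise was 3.93 in line 1, 3.00 in line 2 and 2.61 in line 3, in the reverse order of their untreated levels, while their treated levels spanned 1.18-fold.

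ACTA2 lies on chr10:88935074-88991339 (hg38, minus strand, 9 exons in its longest basic transcript of 1349 bases) and its annotated gene body overlaps the first 758 bases of FAS (chr10:88990582-88991339, opposite strand). FAS had 2697, 2893 and 2623 scaled fragments in treated shARVCF lines, against 326, 466 and 459.55 without drug. With the control shRNA it had 2616, 2248 and 2242 under drug, against 421 without. FAS thus rose in all 3 shARVCF lines and in the control line, by 2.73 ± 0.13 (adjusted p = 9.82e-09) and 2.48 ± 0.19 (adjusted p = 4.4e-07; 2.72 with the trend removed) on the log2 scale. The line with the widest FAS rise was also line 1 (3.04), ahead of line 2 (2.63) and line 3 (2.51). On the other side of FAS, LIPA, a lysosomal acid lipase gene, rose by less, 0.71 ± 0.11 in the shARVCF lines (adjusted p = 0.00026) and 0.42 ± 0.16 in the control line (adjusted p = 0.0387; 0.58 with the trend removed). STAMBPL1, a deubiquitinase gene that runs through the ACTA2 body on the opposite strand for 40080 bases, changed by -0.29 ± 0.15 and -0.38 ± 0.22 and passed neither test (adjusted p = 0.154 and 0.159); its control-line value was 0.04 with the trend removed. The antisense gene ACTA2-AS1 had at most 8.22 scaled fragments in any library. The counting of the deposited table is not stated to use strand, so reads of ACTA2 and of the genes it overlaps may not be fully separated where exons meet.

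**Figure D2:**
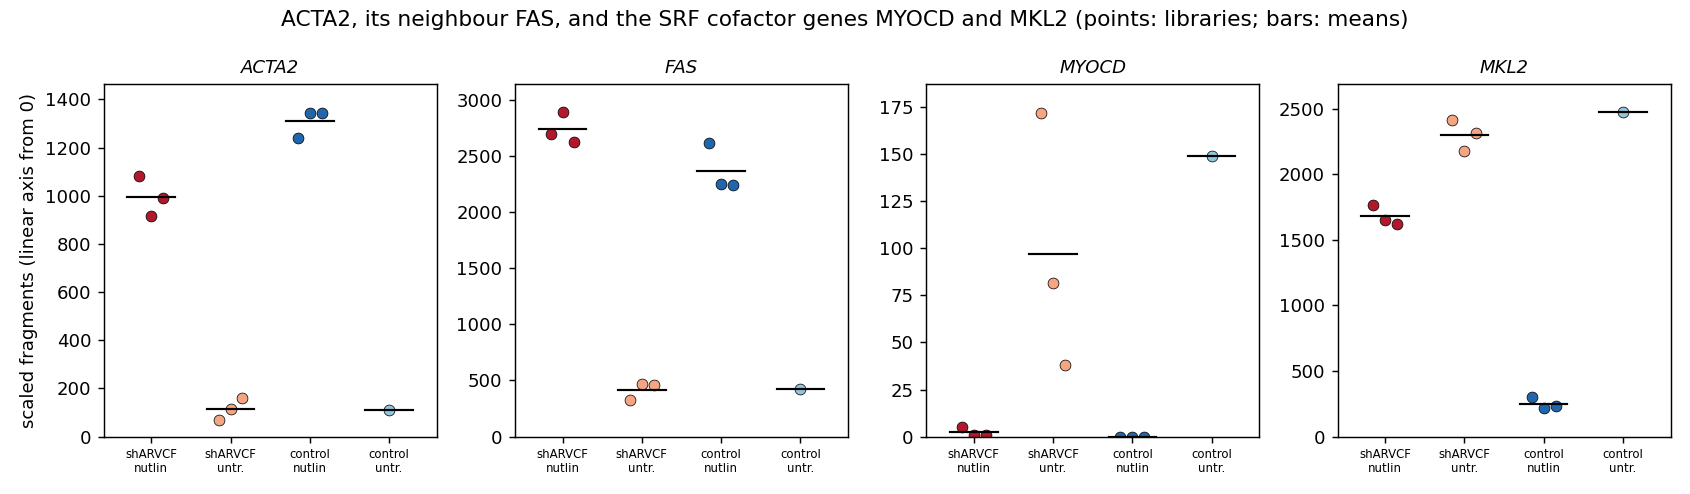
Scaled fragments (vertical axes, linear from 0) of ACTA2, its neighbour FAS, and the SRF cofactor genes MYOCD and MKL2 in each library, by group; points are libraries and bars are means. ACTA2 and FAS are high in all 6 treated libraries, MYOCD is at or below 4.91 in all 6, and MKL2 is lowest in the 3 treated control libraries, at 222 to 299.

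The cytoplasmic actins ACTB and ACTG1 both fell in the shARVCF lines, and ACTB in the control line. ACTB (chr7:5527147-5563784) had 67098, 71288 and 73119 scaled fragments in treated shARVCF lines, against 111003, 96007 and 101180 without drug. The treated control libraries held 93673, 81075.5 and 75145, against 110406 in the untreated one. Its treated libraries lay below its untreated ones in both. The log2 change was -0.54 ± 0.11 in the shARVCF lines (limma adjusted p = 0.00129) and -0.41 ± 0.15 in the control line (adjusted p = 0.0327). The control call is a weak one as deposited, lost without treated control replicate 2 or 3 (limma adjusted p = 0.0674 and 0.0864) and under TMM scaling (0.0643). It was also lost in the first library series alone (-0.24, from 1 treated control library). The value with the trend removed was -1.11 (adjusted p = 6.57e-05). ACTG1 (chr17:81509971-81523847) had 23446, 30543 and 33586 in treated shARVCF lines, against 40804, 35948 and 45096 without drug, again without overlap. Control shRNA cells had 33534, 32048 and 30531 with drug, against 41298 without. ACTG1 fell by 0.49 on the log2 scale in the shARVCF lines (SE 0.13, adjusted p = 0.0105). The control-line change of -0.37 ± 0.19 passed no test (adjusted p = 0.113), but did with a replicate block for line (0.0424) and with the trend removed (-1.02, adjusted p = 0.00052). ACTB and ACTG1 have 10 and 20 named pseudogenes in the annotation, of which 0 and 3 have rows of their own in the table, so reads shared with copies are a source of uncertainty in their levels. ACTG2, the visceral smooth muscle actin, averaged under 10 scaled fragments in each group and was not called, and ACTA1 and ACTC1, the striated muscle actins, did not pass the filter.

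Of the alpha-actinins, ACTN1 rose in both backgrounds and ACTN4 passed no test as deposited. ACTN1 (chr14:68874143-68979440) had 28693, 31928 and 35181 scaled fragments in treated shARVCF lines, against 17236, 18849.8 and 21547 without drug. Its control-line levels were 28099.9, 33101 and 29022 with drug, against 19109 without. Treated and untreated libraries did not overlap, and the rise was nearly the same in each line (0.74, 0.76 and 0.71 on the log2 scale). ACTN1 rose by 0.73 ± 0.11 in the shARVCF lines (limma adjusted p = 0.000233) and by 0.65 ± 0.16 in the control line (adjusted p = 0.00428), where it was 0.51 with the trend removed (adjusted p = 0.0172). ACTN4 (chr19:38647649-38731583) had 11429, 12545 and 11979.9 in treated shARVCF lines, against 10729, 12325 and 11486 without drug. With the control shRNA it had 9819, 12380.2 and 10444 under drug, against 11964 without. Its groups overlapped, and its changes of 0.06 (95% interval -0.17 to 0.28) and -0.14 (-0.46 to 0.17) passed no test (adjusted p = 0.682 and 0.418). The ACTN4 transcripts run from 1566 to 4963 bases, and with the median in place of the longest length the trend-removed change in the control line was -0.73 (adjusted p = 0.000772), so the ACTN4 response there depends on the length taken. ACTN2, the muscle alpha-actinin, rose from a low level, by 1.26 ± 0.38 in the shARVCF lines and by 1.84 ± 0.54 in the control line (adjusted p = 0.0178 and 0.0108; 2.27 in the control line with the trend removed), to group means of 39.7 and 58.3 with drug, against 16.5 and 14.6 without.

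Of the tropomyosins, TPM1 fell in both backgrounds. TPM1 (chr15:63042632-63071915) had 4446, 4037 and 3528 scaled fragments in treated shARVCF lines, against 6456, 5075 and 5276 without drug. The treated control libraries held 4805, 4336 and 4496, against 7687 in the untreated one. All treated libraries lay below all untreated ones. The log2 change was -0.48 ± 0.11 in the shARVCF lines (limma adjusted p = 0.0044) and -0.76 ± 0.16 in the control line (adjusted p = 0.00148); with the trend removed the control value was -0.43 with the longest and -1.12 with the median transcript length, called in both (adjusted p = 0.0374 and 0.000197). TPM2 (chr9:35681992-35690121) had 7446, 8848 and 10768 in treated shARVCF lines, against 5974, 6968 and 9462 without drug, with overlap between the groups. Control shRNA cells had 18404, 22169 and 23021 with drug, against 7579.55 without. In the shARVCF lines each line was higher with drug, by 0.32, 0.34 and 0.19 on the log2 scale, but the change of 0.28 ± 0.18 passed the test with a block for line (adjusted p = 0.0253) and not without it (0.221), nor with the block once the trend was removed (0.147). In the control line TPM2 rose by 1.48 ± 0.25, or 2.78-fold (adjusted p = 0.000366), but by 0.47 with the trend removed, which was not called (0.108). The longest TPM2 transcript has 1392 bases and 60.4% GC. The other tropomyosin genes, TPM3 and TPM4, fell with TPM1 in the shARVCF lines (log2 changes -0.49 and -0.53, adjusted p = 0.00402 and 0.0034), so that 3 of 4 fell there and 0 rose. In control cells 2 of 4 fell, TPM1 and TPM3 (-0.42, adjusted p = 0.0439; -0.25 and 0.216 with the trend removed), and 1, TPM2, rose. With the trend removed 0 rose and 2 fell there, TPM1 and TPM4 (-0.49, adjusted p = 0.0256).

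TAGLN, CNN1 and MYL9, which mark contractile smooth muscle, did not move as a set. MYL9 (chr20:36541484-36551447) had 3949.7, 4188 and 3873 scaled fragments in treated shARVCF lines, against 3507, 3016 and 3044 without drug. Its control-line levels were 7159.9, 8184 and 8564 with drug, against 3382 without. No treated library overlapped an untreated one, and the treated control libraries lay above all others. It rose by 0.33 ± 0.10 in the shARVCF lines (limma adjusted p = 0.0156) and by 1.23 ± 0.14, or 2.35-fold, in the control line (adjusted p = 1.07e-05), where it was 0.69 with the trend removed (adjusted p = 0.00125). The shARVCF call is lost without untreated line 2 or 3 or treated line 2 (adjusted p = 0.0622, 0.0526 and 0.0613). TAGLN (chr11:117199321-117204782) had 2088, 1628 and 2886 in treated shARVCF lines, against 1302, 887 and 2314 without drug, with overlap. With the control shRNA it had 5727, 6537 and 6531 under drug, against 1598 without. Each shARVCF line was higher with drug, by 0.68, 0.88 and 0.32 on the log2 scale, and the mean change of 0.62 ± 0.34 passed the test with a block for line (adjusted p = 0.000381) but not without it (0.186). In the control line TAGLN rose by 1.97 ± 0.49, or 3.91-fold (adjusted p = 0.00917), and by 1.34 with the trend removed (adjusted p = 0.0425; 1.15 and 0.0709 with the median transcript length).

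CNN1, calponin, fell in the shARVCF lines. CNN1 (chr19:11538717-11550323) had 80.3, 55.5 and 113 scaled fragments in treated shARVCF lines, against 213, 147 and 305 without drug, with no overlap. The treated control libraries held 130.4, 207 and 146, against 304 in the untreated one. The log2 change was -1.39, -1.39 and -1.42 in lines 1, 2 and 3, with a mean of -1.40 ± 0.31 (limma adjusted p = 0.00325). The control-line change of -0.94 ± 0.43 passed no test as deposited (adjusted p = 0.0844), but did with a block for line (0.0072) and with the trend removed (-1.76, adjusted p = 0.00401). At these levels CNN1 is, after ACTA2 without drug, the least abundant of the 10 genes per kilobase. Of the 5 calponin and transgelin genes tested, 0 rose and 1, CNN1, fell in the shARVCF lines, while 2 rose and 1 fell in the control line, against 42.8% and 57.1% of all genes called in either direction. Without the trend 0 rose and 2 fell in the shARVCF lines, and 1 rose and 3 fell in the control line, so the balance there turned. As deposited TAGLN2 rose beside TAGLN in the control line (0.56, adjusted p = 0.0232; -0.28 and 0.186 with the trend removed) and CNN3 fell (-0.57, adjusted p = 0.00228; -0.73 with the trend removed). The annotated bodies of TAGLN, MYL9 and ACTN4 overlap PCSK7, DLGAP4-AS1 and CAPN12 on the opposite strand.

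**Figure D3:**
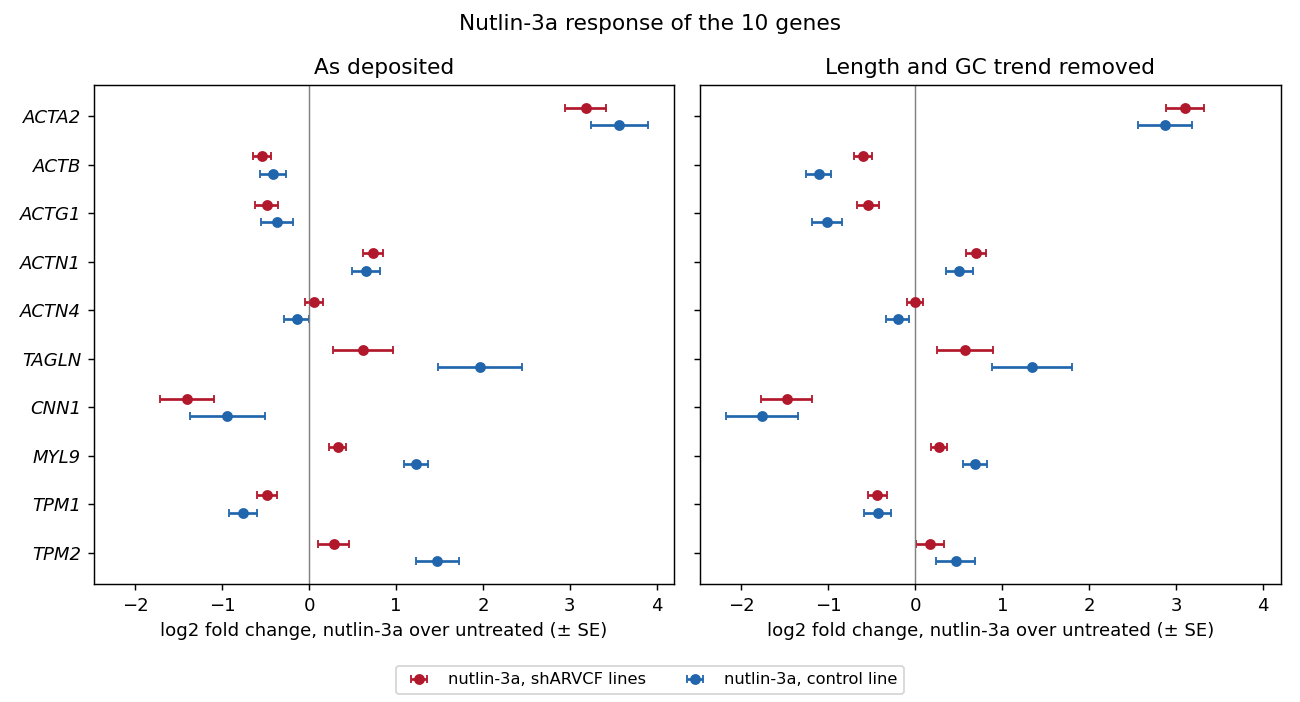
Log2 fold change with nutlin-3a over untreated (horizontal axes, ± SE from limma) for the 10 genes, in the shARVCF lines (red, 3 against 3 libraries) and the control line (blue, 3 against 1), as deposited (left) and without the length and GC trend (right). TPM2 stands at 0.28 in red and 1.48 in blue on the left, and at 0.17 and 0.47 on the right.

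Under nutlin-3a, 4 of the 10 genes were lower in the shARVCF lines than in the control line and none was higher: TAGLN, CNN1, MYL9 and TPM2. Of all genes tested 58.4% were called in this comparison, 32.3% higher and 26.1% lower. The 4 of 10 lie below the share called in either direction and above the share called lower. With 10 genes, neither is read as a result about them. An unadjusted limma p below 0.05 was found for 5 of the 10 genes, all lower, and for 9385 of the 14955 genes tested. In 6 of the 10 the treated shARVCF libraries lay wholly below the treated control libraries, as did 29.3% of all genes, and in 0 wholly above, against 34.8% (64.1% in either direction). The log2 difference was -1.55 ± 0.34 for TAGLN (limma adjusted p = 0.00535), -0.98 ± 0.31 for CNN1 (adjusted p = 0.0166), -0.99 ± 0.10 for MYL9 (adjusted p = 3.56e-06) and -1.24 ± 0.18 for TPM2 (adjusted p = 9.29e-05). These 4 values are smaller in size once the length and GC trend is removed: -0.95 for TAGLN (adjusted p = 0.0516), -0.20 for CNN1 (0.631), -0.43 for MYL9 (0.00377) and -0.30 for TPM2 (0.159). MYL9 is thus the 1 gene of the 4 called both ways. CNN1 also lost its call without treated shARVCF line 2 (0.0659) or treated control replicate 2 (0.0727). In the first library series alone, which leaves 1 treated control library, TAGLN and CNN1 lost theirs, at -1.42 and -0.70.

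The actins and the other crosslinking and tropomyosin genes were not called in that comparison as deposited. ACTA2 differed by -0.40 (95% interval -0.91 to 0.12, limma adjusted p = 0.166) although its treated shARVCF libraries all lay below the treated control ones. Without untreated shARVCF line 1 or 3 it was called (adjusted p = 0.0242 and 0.0482) at the same -0.40. Untreated libraries enter this difference only through the spread that the groups share. With the trend removed the ACTA2 value was 0.20. ACTB differed by -0.24 (-0.47 to -0.00, adjusted p = 0.0748) and was called lower under TMM scaling (0.0251) and without treated control replicate 3 (0.0447). It was also called lower in the first library series (-0.41, against 1 treated control library), but higher with the trend removed (0.42, adjusted p = 0.00698). ACTG1 differed by -0.15 (-0.44 to 0.14) and likewise by 0.48 with the trend removed (adjusted p = 0.00916). The direction in which the cytoplasmic actins differ between the lines under drug thus depends on the correction. ACTN1 differed by 0.09 (-0.16 to 0.33), ACTN4 by 0.15 (-0.08 to 0.37) and TPM1 by -0.19 (-0.44 to 0.06). ACTN4 was called higher under library totals (adjusted p = 0.0424), and with the trend removed it was 0.22 with the longest transcript (0.0846) and 0.71 with the median length (0.000116). ACTN1 was 0.24 with the trend removed (adjusted p = 0.105). With the trend removed TPM1 was -0.48 (adjusted p = 0.00487) with its longest transcript, which has only 2 exons, and 0.11 with the median length of 1100 bases.

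The difference between the nutlin-3a effects, shARVCF minus control, was called for 2 of the 10 genes, both lower: MYL9 at -0.90 ± 0.17 (limma adjusted p = 0.00182) and TPM2 at -1.19 ± 0.30 (adjusted p = 0.0114). Of all genes tested 31.8% were called, 19.3% higher and 12.5% lower. With the trend removed neither was called: MYL9 was -0.41 (adjusted p = 0.127) and TPM2 -0.30 (0.554). In that fit 0 of the 10 genes passed, against 1860 of 14743 genes. An unadjusted p below 0.05 was found for 3 of the 10, a count with no share of all genes beside it. TPM2 also lost its call in the first library series alone, at -0.997 with 1 treated control library. For TAGLN the difference of -1.34 ± 0.60 was called with the block for line (adjusted p = 0.000185, and 0.00831 with the block and the trend removed, at -0.77) but not without it (0.129). The ACTA2 effects differed by -0.39 (95% interval -1.28 to 0.50) and the FAS effects by 0.24 (-0.25 to 0.74), neither called, which leaves room for differences in either direction.

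Without drug, 0 of the 10 genes were called between shARVCF and control cells by limma, and 1, TPM1, had an unadjusted p below 0.05. Of all genes tested 0.0201% were called, with 237 below an unadjusted p of 0.05. TPM1 had 6456, 5075 and 5276 scaled fragments in the 3 untreated shARVCF lines, against 7687 in the untreated control library, a log2 difference of -0.46 (95% interval -0.81 to -0.11). It was the 1 gene of the 10 whose shARVCF libraries all lay on the lower side of the control library, as 20.9% of all genes did; 0 lay wholly above, against 19.0% (39.9% in either direction). For TAGLN, CNN1, MYL9 and TPM2 the intervals were -1.33 to 0.93, -1.47 to 0.43, -0.39 to 0.21 and -0.59 to 0.50. With 1 control library, differences inside these intervals were not detectable.

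The 3 shARVCF lines differed among themselves, and in the same order with and without drug for several genes. TAGLN, CNN1, TPM2 and ACTN1 were highest in line 3 in both conditions, as was ACTG1, while TPM1 was highest in line 1 in both. TAGLN spanned 1.77-fold between the treated lines and 2.61-fold between the untreated ones, and CNN1 2.04-fold and 2.07-fold. The line with the most TAGLN, line 3, also gave the smallest log2 difference with drug for TAGLN and TPM2, and without it in the untreated group both changes were called (log2 0.99, adjusted p = 0.00811, and 0.47, adjusted p = 0.0332). Line 3 without drug had 2314 scaled fragments of TAGLN, more than treated lines 1 and 2. By contrast MYL9 and ACTN4 spanned at most 1.16-fold within either shARVCF group.

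**Figure D4:**
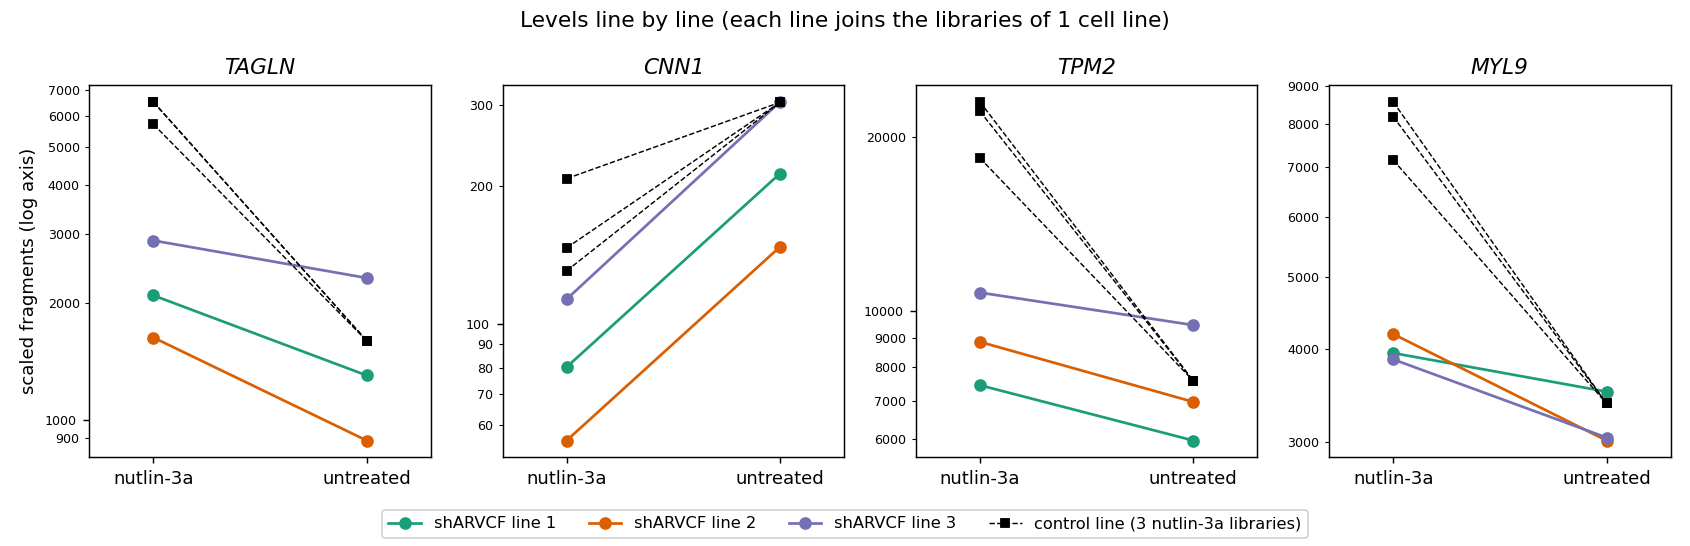
Scaled fragments (vertical axes, log scale) of TAGLN, CNN1, TPM2 and MYL9 with nutlin-3a and untreated, joined for each cell line; coloured circles are the 3 shARVCF lines and black squares the control line, whose 3 treated libraries are joined to its 1 untreated library. The lines keep their order for TAGLN, CNN1 and TPM2, and the treated control libraries lie above every shARVCF library for TAGLN, TPM2 and MYL9.

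As shares of the library, the 10 genes together took 0.899 ± 0.058% of scaled fragments in treated shARVCF lines (SD, n = 3), against 1.07 ± 0.067% without drug. In the control line they took 1.00 ± 0.028% with drug (SD, n = 3), against 1.12% without. ACTB and ACTG1 made up 60.5 to 61.4% of that sum in treated shARVCF lines, against 73.2 to 76.9% without drug, and 55.8 to 62.8% in the treated control line, against 74.6% without. The makeup of the sum therefore moved toward the other 8 genes in all 6 treated libraries, while the ratio of ACTB to ACTG1 stayed between 2.18 and 2.86 over all 10 libraries. The ratio of ACTN1 to ACTN4 was 2.51 to 2.94 in treated shARVCF lines, against 1.53 to 1.88 without drug, and 2.67 to 2.86 in the treated control line, against 1.60 without. The ratio of TPM2 to TPM1 was 1.67 to 3.05 in treated shARVCF lines, against 0.925 to 1.79 without drug, and 3.83 to 5.12 in the treated control line, against 0.986 without. The TPM2 to TPM1 and ACTB to ACTG1 ratios overlapped between treated and untreated shARVCF libraries, and the ACTN1 to ACTN4 ratio did not.

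Per kilobase of the longest basic transcript, ACTB was highest in every group, at 36700.5 scaled fragments per kilobase in treated and 53477 in untreated shARVCF lines, and 43362 in treated and 57473 in untreated control cells. ACTG1 came next in every group but treated control cells, where TPM2 (15228) stood above ACTG1 (14201). ACTA2 and CNN1 filled the lowest places in all groups, ACTA2 last without drug (85.3 in shARVCF and 81.2 in control cells) and CNN1 last with it (44.9 and 87.3). In between the order depended on the transcript length taken, above all for TPM1, whose median transcript is 1100 bases and longest 3957. ACTA2 with drug, at 738 in shARVCF and 971 in control cells, stayed below TAGLN (1016 and 2892).

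Other genes of actin and of SRF were counted over lists that were drawn up with earlier results known. Their counts stand beside the share of all genes that the drug moved, 42.8% for shARVCF (21.0% up, 21.7% down) and 57.1% for control cells (25.1% up, 32.0% down), and none is read as particular to its list. Of 6 genes for SRF and its cofactors, 0 rose and 3 fell in each background: MYOCD, MKL2 and ELK4. ELK4 was no longer called in the control line once the trend was removed (-0.28, adjusted p = 0.116, against -1.33 as deposited), while ELK1 was called lower there (-0.67, adjusted p = 0.000568, against -0.19). MYOCD, the cofactor of the smooth muscle programme, had 4.91, 0.925 and 0.950 scaled fragments in treated shARVCF lines, against 172, 81.4 and 38.2 without drug, and 0 in each treated control library, against 149 without. MYOCD fell in the shARVCF lines (log2 change -4.87 ± 0.61, limma adjusted p = 4.16e-05) and is listed at 0 in the treated control libraries. MKL2 changed by -0.45 in the shARVCF lines (adjusted p = 0.00661) and by -3.31 in the control line (adjusted p = 1.91e-08; -2.51 with the trend removed), while SRF itself changed by -0.15 and -0.06 and MKL1 by -0.03 and -0.14, none of them called.

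Of 21 further SRF and MRTF targets, 9 rose and 3 fell in the shARVCF lines and 11 rose and 4 fell in the control line, where 6 rose and 6 fell with the trend removed (9 and 4 in the shARVCF lines). The medians were 0.13 and 0.49, against -0.00 and -0.10 over all genes. The matrix-linked signalling gene CYR61 rose by 1.82 and 2.19 in the shARVCF and control lines (adjusted p = 1.47e-07 and 6.14e-07), FHL2, a LIM-domain gene, by 1.88 and 2.23 (5.89e-07 and 2.41e-06), and ANKRD1, an ankyrin-repeat gene of stretched muscle, by 1.97 and 2.08 (1.41e-06 and 1.29e-05). LIMA1 rose by 1.81 and 0.81 (limma adjusted p = 6.43e-09 and 8.72e-05). The control-line values without the trend were 1.87 for CYR61, 2.63 for FHL2, 1.96 for ANKRD1 and 1.36 for LIMA1. VCL, vinculin, which links actin to adhesions, fell, with changes of -0.38 and -1.16 (0.00643 and 1.38e-05), the second -0.62 with the trend removed. So genes known as SRF targets rose and fell side by side, as the 10 genes did.

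Of 11 myosin II genes, 4 rose and 1 fell in the shARVCF lines and 6 rose and 3 fell in the control line. Once the trend was taken out, 4 rose and 2 fell in the shARVCF lines, and 3 rose and 2 fell in the control line. MYLK, the kinase that phosphorylates MYL9, had a mean of 5848 scaled fragments in treated shARVCF lines, against 1731 without drug, a log2 rise of 1.75 ± 0.11 (limma adjusted p = 8.08e-08), and rose by 0.76 ± 0.15 in the control line (adjusted p = 0.00107; 1.41 with the trend removed). MYH10, a non-muscle heavy chain, fell in both, with log2 changes of -1.16 and -2.01 (adjusted p = 1.03e-06 and 1.9e-07; -1.45 in the control line with the trend removed). Of 33 genes of filament turnover, 4 rose and 12 fell in the shARVCF lines and 11 rose and 12 fell in the control line. Removal of the trend left 2 higher and 11 lower in shARVCF cells, against 9 higher and 13 lower in control cells. The formin gene DIAPH3 fell in both, with log2 changes of -4.19 and -5.33 (adjusted p = 7.91e-07 and 1.74e-06; -4.65 in the control line with the trend removed), and TMSB4X, which holds actin monomers, changed by -1.11 in the shARVCF lines (adjusted p = 0.000281) and -0.61 in the control line (0.0487; -1.24 with the trend removed).

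Genes with a pattern close to that of ACTA2, TAGLN or TPM1 were sought by the root mean square difference of centred log2 values over the 10 libraries, as a description. Closest to ACTA2 were EPN3 (0.16), GADD45A (0.21), BATF2 (0.22), CDKN1A (0.24) and DGKA (0.24), of which CDKN1A, the p21 cell cycle inhibitor, and GADD45A are known p53 targets; FAS stood at rank 58 (0.48). Closest to TAGLN were IL32 (0.23), FAM27E3 (0.26), KRT81 (0.27), PDLIM1 (0.28) and S100A16 (0.29). Closest to TPM1 were TCF3 (0.11), SIX5 (0.12), USP21 (0.12), GNG7 (0.13) and SEMA4C (0.13). Among the 10 genes the nearest pairs were ACTB with ACTG1 (0.13), ACTB with TPM1 (0.16), ACTG1 with TPM1 (0.25) and MYL9 with TPM2 (0.26), and the farthest was ACTA2 with CNN1 (2.21). All these values share the same libraries, with their depth and length trend.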

How the data were processed

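RNA was extracted with RNeasy and sequenced as TruSeq Stranded mRNA libraries, per the labels' protocols. The submitters' processing notes name bcl2fastq 1.8.3, HISAT2 2.1.0, the build hg38 and Cuffnorm 2.2.1; the authors deposited 1 table of signal values, which are fragments per gene estimated and scaled per library (17821751 to 19903778 in sum). Since 48.7 to 55.1% of positive values are whole multiples of the lowest step (tolerance 0.01), no count model was used. limma 3.58.1 (R 4.3.3; trend, robust) was fitted to log2(value + 1) of 14955 genes with at least 10 in at least 3 libraries, as 4 group means with 6 residual degrees of freedom, two-sided, with Benjamini-Hochberg adjustment and calls at 0.05. Alternative scalings used TMM, relative log expression and upper-quartile factors or library totals. The fit was tested on simulated data.

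Gene positions and lengths are from the GENCODE annotation of hg38 (24016 symbols matched by name, 743 by an older name, 1281 not at all). The length and GC trend of each library was removed with splines of 4 degrees of freedom over 14743 genes. All 10 genes are named in every comparison, and from each list some genes, not always those with the smallest adjusted p. The genes and lists were chosen with earlier results of these data known. The result of 1 further gene list is not reported here. Residuals of a shARVCF line with and without drug correlated across genes (r 0.275, 0.288 and 0.327 for lines 1, 2 and 3). Other pairs lay below 0, which positive same-line values largely force, since residuals within a group sum to 0. Same-numbered libraries come from the same line, so the replicate number pairs them. Alternatives were pseudocounts, filters, scalings, the replicate block, library series, the trend, and each library left out.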

Additional observations from a re-analysis of the deposited data

Results flagged for a closer look

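The response to nutlin-3a differed between the shARVCF lines and the control line for 2 of the 10 genes, by a limma test of the difference itself. MYL9 rose by 0.33 in the shARVCF lines and 1.23 in the control line, a difference of -0.90 ± 0.17 on the log2 scale (adjusted p = 0.00182). TPM2 changed by 0.28 in the shARVCF lines, where it passed no test without the block for line, and rose by 1.48 in the control line, a difference of -1.19 ± 0.30 (adjusted p = 0.0114). All 3 shARVCF lines showed a smaller rise than each of the 3 treated control libraries, for both genes. Those 3 control values are set against the same 1 untreated library, so they are not separate responses. The share of all genes that split this way was not counted. With the length and GC trend removed the differences were -0.41 (adjusted p = 0.127) and -0.30 (0.554). The part of that trend in both was not tested. Of the 11 myosin II genes, MYL9 among them, 4 differed upward and 5 downward, against 31.8% of all genes called. The light chain genes MYL6 (-0.98, limma adjusted p = 0.000399) and MYL12B (-0.90, adjusted p = 0.00129) were also among the 5. With the trend removed 2 of the 11 differed upward and 0 downward.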

How the results depend on the processing

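Of the values for single genes, 1077 kept direction and side of the threshold, 31 gained a call, 34 lost one and 38 turned; the cause was not tested. The length and GC trend moved most. With it removed (longest, then median transcript length, the second added after the data were seen), 5644 and 5470 of all genes, against 8731, were called between shARVCF and control cells under nutlin-3a, 0 and 0, against 3, without drug, and 1860 and 1856, against 4756, for the difference of effects (2817 with the replicate block and the longest length); for that difference 0 and 1 of the 10 genes were called, against 2. Log2 values that changed sign were, in the same order, -0.0084 and -0.013 for ACTN4 with drug in the shARVCF lines (-0.0084 with the block and the longest length). Between shARVCF and control cells under drug they were 0.20 and 0.090 for ACTA2, 0.42 and 0.31 for ACTB, 0.48 and 0.43 for ACTG1, and, with the median length, 0.11 for TPM1. Without drug they were 0.0085 and 0.012 for ACTG1, 0.026 for ACTN4 with the longest and 0.0087 for TPM2 with the median length. For the difference of effects they were 0.23 and 0.10 for ACTA2, 0.51 and 0.39 for ACTB, 0.47 and 0.42 for ACTG1, 0.28 and 0.22 for CNN1, and -0.0024 for TPM1 with the longest length, the same with the block.

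Scaling turned ACTA2 without drug to 0.0050 (upper-quartile factors) and 0.0052 (library totals) and ACTN1 in the difference of effects to -0.00049 (upper-quartile factors). Library totals put the median log2 change of all genes at -0.21, against -0.10, in the control line, and at 0.17, against 0.06, between shARVCF and control cells under drug. The split of the 10 genes called in the control line, 5 higher and 2 lower, was 5 and 1 under TMM factors and 4 and 4 with the trend removed; that between shARVCF and control cells under drug, 0 and 4, was 0 and 5 under TMM factors and 2 and 2 with the trend removed. Without drug 8 of all genes were called with a pseudocount of 0.1, 0 with 10, 1 with a mean of at least 50, 1 in the first library series alone and 5 with neither trend nor robust weights in limma. In the difference of effects, 1 of the 10 genes was called with library series as a term and 1 in the first series alone. With the replicate block, 9 of the 10 genes were called in the shARVCF lines, 9 in the control line and 3 in the difference of effects, with no share of all genes beside them. The shARVCF and control lines cannot be compared in that fit, since the lines differ between them.

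Leaving out 1 library at a time gave 6 to 8 of the 10 genes in the shARVCF lines, 6 to 7 in the control line, 3 to 5 between them under drug, 0 without drug and 2 to 3 in the difference of effects. Of all genes, 5326 to 6613 were called in the shARVCF lines and 8185 to 8575 in the control line. Between them 7847 to 8734 were called under drug, 1 to 5 without drug and 4147 to 4833 in the difference of effects. Ranges that crossed 0 were -0.26 to 0.00066 for ACTG1 under drug and -0.23 to 0.031 in the difference of effects, and without drug -0.29 to 0.30 for ACTA2, -0.11 to 0.055 for ACTG1, -0.084 to 0.077 for ACTN1, -0.57 to 0.12 for TAGLN and -0.23 to 0.10 for TPM2. The untreated control library cannot be left out where the control line's response is the result. Low values limit the precision for CNN1, for ACTA2 without drug and for MYOCD and ACTG2, and the 1 untreated control library limits every value set against it.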
